A study of Mus musculus with 2 samples.

Results

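The peaks described here are 919 distal MEF2A binding regions of CH12.LX cells that hold an NF-kB element but neither a MEF2 consensus nor an AP-1 element. They were taken from the 16839 peaks of the deposited mm9 list. A peak was distal when its summit lay over 1 kb from every protein-coding transcript start (TSS) in GENCODE vM1, which left 13225 peaks. The NF-kB element was the 10-base run of G, G, G, purine, any base, A or T, pyrimidine, pyrimidine, C, C, and it had to lie on either strand wholly within 50 bp of the summit. Of the distal peaks, 1032 (7.80%, 95% Wilson interval 7.36 to 8.27) had it, against 147 of the 3614 peaks nearer to a TSS (4.07%, 3.47 to 4.76). From these 1032, 113 were removed: 37 had a MEF2 consensus (pyrimidine, T, A, 4 bases each A or T, T, A, purine), 78 had an AP-1 element (TGACTCA or TGAGTCA) and 2 of them had both. The MEF2 consensus was thus in 3.59% of distal NF-kB peaks (2.61 to 4.90), against 8.60% of the other 12193 distal peaks (8.12 to 9.11), and the AP-1 element in 7.56% (6.10 to 9.33) against 13.2% (12.6 to 13.8). The NF-kB element takes up letters where either could lie, and these shares are not scaled for that. The 919 that were left are 6.95% of distal peaks (6.53 to 7.39). The rule used sequence and position alone and no signal value, though it was chosen with earlier results of these data known. The intervals given here cover counting error over peaks only.

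The study mapped MEF2A on the genome of CH12.LX, an immortalized line from a B cell lymphoma of a female mouse of strain B10.H-2aH-4bp/Wts, by chromatin immunoprecipitation with an antibody to MEF2A and sequencing (ChIP-seq). There was 1 group of 2 biological replicates, from separate biosamples of the same line and donor, with no treatment named. The spread between the replicates is therefore that of 1 line, and no second condition can be compared. The control library was not analysed here. A summit lay within 10 kb of a TSS of 8 of 8 B cell marker genes, 5 of 8 T cell, 1 of 8 myeloid and 1 of 6 erythroid markers, against 6295 of 22232 protein-coding genes. Binding near a gene is not its expression.

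NF-kB is a family of Rel-domain dimers that IkB proteins hold in the cytoplasm until signals from antigen, Toll-like or TNF-family receptors release them. In B cells these dimers drive survival, activation and inflammatory genes and also the genes of their own inhibitors. MEF2A is a MADS-box factor that binds an AT-rich element, quite unlike the GC-flanked NF-kB element, and MEF2 factors act downstream of the B cell receptor. The series holds no NF-kB ChIP, so an NF-kB element here means a match of letters and not a bound factor.

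The 8 strongest of these peaks outside exons are shown first, since they carry the largest MEF2A signals. Each is the 101-base window about the summit on the plus strand of NCBIM37 (mm9), 5′ to 3′, with the NF-kB element in capitals, and each is named by the gene of the nearest TSS.
1100001G20Rik: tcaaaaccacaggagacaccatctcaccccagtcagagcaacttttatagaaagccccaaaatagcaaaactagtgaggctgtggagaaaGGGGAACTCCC
Nek6: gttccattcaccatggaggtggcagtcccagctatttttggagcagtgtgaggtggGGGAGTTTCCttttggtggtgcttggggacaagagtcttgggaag
Lmo4: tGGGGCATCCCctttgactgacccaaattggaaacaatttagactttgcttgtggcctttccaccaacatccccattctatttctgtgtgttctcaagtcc
Snx11: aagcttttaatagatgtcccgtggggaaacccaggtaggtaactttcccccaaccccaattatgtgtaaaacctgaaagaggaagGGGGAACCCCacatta
Cpne2: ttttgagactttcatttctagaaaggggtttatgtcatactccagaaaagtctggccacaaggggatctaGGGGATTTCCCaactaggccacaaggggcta
Rasgrp3: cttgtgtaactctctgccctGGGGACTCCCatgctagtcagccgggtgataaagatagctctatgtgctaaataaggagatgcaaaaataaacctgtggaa
Fam174a: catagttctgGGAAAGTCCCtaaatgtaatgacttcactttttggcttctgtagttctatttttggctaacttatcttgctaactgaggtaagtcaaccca
Larp1: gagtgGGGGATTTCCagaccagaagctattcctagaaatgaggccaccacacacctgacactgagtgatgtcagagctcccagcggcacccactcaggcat

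The windows lie at chr11:83550904-83551004, chr2:38396851-38396951, chr3:143296158-143296258, chr11:96635885-96635985, chr8:97017263-97017363, chr17:75842547-75842647, chr1:96724363-96724463 and chr11:57766294-57766394, in the order printed. Those of Nek6, Snx11 and Rasgrp3 are in introns of the named gene, and the other 5 are intergenic. In 6 of the 8 the NF-kB element sits more than 25 bp off the summit: its centre is 44.5 bp from it at 1100001G20Rik, 44.5 bp at Lmo4, 40.5 bp at Larp1, 39.5 bp at Snx11, 35.5 bp at Fam174a and 25.5 bp at Rasgrp3. AT-rich stretches that match 9 of the 10 MEF2 positions stand in 3 of them, CTATTTTTGG at Nek6 and at Fam174a, each on the plus strand as printed, and CTATTAAAAG at Snx11 on the minus strand.

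The second set is shown because these peaks lie within 50 kb of a TSS of an NF-kB pathway gene, again on the plus strand of mm9 with the element in capitals.
Nfkbia: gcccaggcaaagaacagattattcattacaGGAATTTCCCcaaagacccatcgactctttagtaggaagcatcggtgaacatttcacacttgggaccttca
Nfkb1: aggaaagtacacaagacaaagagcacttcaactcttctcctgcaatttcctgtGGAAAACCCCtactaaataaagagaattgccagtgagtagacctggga
Nfkb2: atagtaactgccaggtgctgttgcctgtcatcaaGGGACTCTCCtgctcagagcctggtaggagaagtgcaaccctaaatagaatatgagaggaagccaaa
Bcl3: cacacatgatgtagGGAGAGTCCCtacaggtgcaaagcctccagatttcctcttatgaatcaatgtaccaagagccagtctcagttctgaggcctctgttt
Tnfaip3: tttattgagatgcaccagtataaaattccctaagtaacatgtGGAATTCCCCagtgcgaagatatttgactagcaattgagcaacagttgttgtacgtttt
Tnip3: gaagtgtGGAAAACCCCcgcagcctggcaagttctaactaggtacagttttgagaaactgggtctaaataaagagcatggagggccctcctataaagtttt
Birc2: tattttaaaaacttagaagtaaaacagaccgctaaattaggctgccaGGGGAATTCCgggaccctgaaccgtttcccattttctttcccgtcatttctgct

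These lie at chr12:56585537-56585637, chr3:135303266-135303366, chr19:46390842-46390942, chr7:20378340-20378440, chr10:18729195-18729295, chr6:65514107-65514207 and chr9:7838234-7838334, in the order printed. The peaks named for Nfkb1 and Tnfaip3 are in introns of those genes. The peak named for Nfkb2 is in an intron of Psd and that named for Bcl3 in an intron of Cblc, while those named for Nfkbia, Tnip3 and Birc2 are intergenic. At Tnfaip3 and Birc2, which encode a ubiquitin-editing inhibitor of NF-kB and an inhibitor of apoptosis, the element is nearly at the summit, 3.5 and 1.5 bp from it.

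The element took many forms. Of the 58 sequences the rule allows when a form and its reverse complement count as the same, 51 were found. The commonest, GGGACTTTCC, is the form long known from the immunoglobulin kappa light chain enhancer, and 96 peaks had it (10.4%, 8.63 to 12.6). It was followed by GGGGATTTCC in 72 peaks, GGGAAATCCC in 70, GGGGCTTTCC in 64 and GGGGTTTTCC in 61. In all distal peaks, the commonest form occurred 103 times within 50 bp of a summit, against 6 times in the 151 to 200 bp to either side. It was picked by its count near the summit, which favours such a contrast. Most forms were also more frequent within 50 bp, some by less, such as GGGACTCTCC with 15 against 8. The exceptions were rare forms: GGGACACTCC (4 against 7), GGGGGTCTCC (2 against 4), GGGATATCCC (1 against 2) and GGGGCACCCC (4 against 4). The median signal of peaks with a given form, as a percentile of the mm9 list in which 100 is the strongest, was 58.5 for GGGACTTTCC (95% interval of the median 44.4 to 65.4), 56.4 for GGGGATTTCC (40.6 to 69.0) and 64.2 for GGGAAACCCC (57.8 to 73.2). The intervals of these 3 forms overlap.

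A single stretch could match the element in more than 1 register. Of 949 separate sites in the 919 peaks, 162 did so, 159 of them over 11 bases, and GGGGATTTCCC (or its reverse complement GGGAAATCCCC) was the commonest with 32 sites. When overlapping matches counted as 1 site, 889 peaks had a single site and 30 (3.26%) had 2. The strongest of these 30, with 2 sites each, were nearest to Gtdc1 (rank 1215 of the mm9 list), Pde4dip (rank 1588) and Spata13 (rank 2798), and their windows show how far apart the sites lie.
Gtdc1: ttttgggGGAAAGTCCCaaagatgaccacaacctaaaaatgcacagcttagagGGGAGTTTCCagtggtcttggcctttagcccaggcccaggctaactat
Pde4dip: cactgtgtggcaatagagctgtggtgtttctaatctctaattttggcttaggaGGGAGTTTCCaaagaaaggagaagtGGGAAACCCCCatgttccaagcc
Spata13: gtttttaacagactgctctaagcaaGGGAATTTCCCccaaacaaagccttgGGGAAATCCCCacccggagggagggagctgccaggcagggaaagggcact

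These windows are at chr2:44812848-44812948, chr3:97578934-97579034 and chr14:61355641-61355741, on the plus strand of mm9. Peaks with 2 sites were not stronger by the median: 49.3 (20.6 to 60.4) in those 30, against 57.6 (53.8 to 59.8) in the 889 with 1 site, with overlapping intervals.

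NF-kB elements gathered at MEF2A summits, and over a wider span than MEF2 elements did. In the 10552 distal peaks without MEF2 consensus or AP-1 element, the number of NF-kB elements was 26.7 per 1000 peaks in the 10 bp next to the summit, 18.95 at 40 to 50 bp, 18.01 at 50 to 60 bp and 8.62 at 90 to 100 bp, and it reached 2.94 at 180 to 190 bp. The MEF2 consensus in all distal peaks had nearly the same height next to the summit, 24.95 per 1000 peaks, but was at 8.54 at 40 to 50 bp, 3.25 at 80 to 90 bp and 3.02 at 180 to 190 bp. Overlapping matches were counted separately in these numbers, and the 919 peaks held 1114 NF-kB matches in 949 sites. The AP-1 element had 34.9 per 1000 peaks next to the summit, 19.96 at 40 to 50 bp and 4.91 at 180 to 190 bp. Because the rule stops at 50 bp, 202 distal peaks with the nearest element just beyond it (under 60 bp) are not among the 919. The median percentile was 49.0 in the 94 peaks just inside, with the element at least 40 bp out, against 52.3 in those 202. At the other edge of the rule, the 24 peaks just over 1 kb from a TSS had a median of 47.0, against 45.6 in 40 peaks with the same elements just under 1 kb from one.

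**Figure D1:**
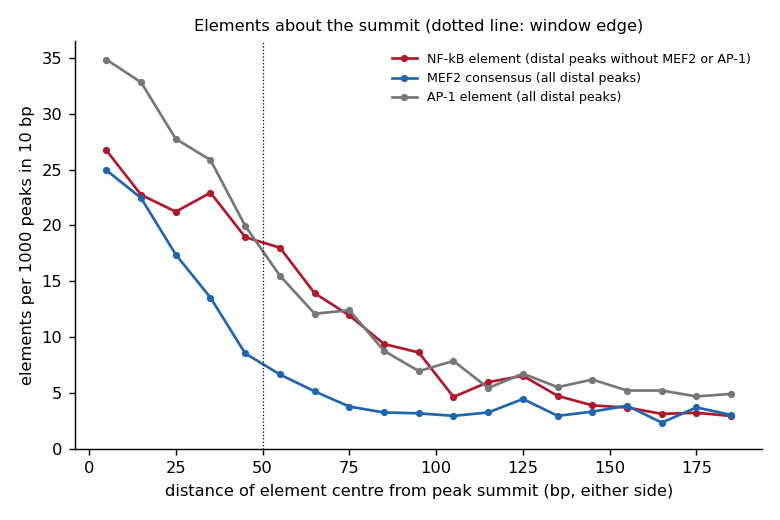
Number of element centres per 1000 peaks (y axis) in 10 bp steps of distance from the summit on either side (x axis, bp). Red, NF-kB elements in distal peaks without MEF2 or AP-1; blue, MEF2 consensus and grey, AP-1 elements in all distal peaks; the dotted line is the edge of the 50 bp window. The red line is at 18.01 in the step past the edge, where the blue line is at 6.65.

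Within the 919 peaks, the nearest element was within 20 bp of the summit in 438 (47.7%, 44.4 to 50.9) and its median distance was 21.5 bp. In the 196 peaks of the strongest signal quintile the share was 42.3% (35.6 to 49.3), and in the 153 of the weakest 52.9% (45.1 to 60.7). Among the 20 strongest peaks it was 7 of 20, with a median distance of 30.5 bp. Thus stronger peaks did not have a more central NF-kB element, and the intervals of the strongest and the weakest quintile overlap.

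The MEF2A signal of these peaks was middling. Their median percentile was 57.5 (53.8 to 59.6), against 50.7 (49.8 to 51.7) in the 9633 distal peaks with none of the 3 elements, 53.8 in all distal peaks and 38.8 in peaks near a TSS. Peaks with a MEF2 consensus stood higher, with a median of 72.0 (69.2 to 74.7) in 1086 peaks, and so did the 113 peaks that had an NF-kB element with MEF2 or AP-1, at 73.3 (68.0 to 77.8). The 1587 distal peaks with AP-1 and no MEF2 consensus were nearer, at 60.5 (58.1 to 63.1), an interval that overlaps that of the 919. The deposited signal values of the 919 ran between 39.3 and 1435, with a median of 68.6. In the strongest quintile of the whole list were 196 of them (21.3%, 18.8 to 24.1), against 23.1% of all distal peaks. For the 9633 with none of the 3 elements the share was 20.7% (19.9 to 21.6). Among the 1000 strongest were 57 of the 919, against 934 of all 13225 distal peaks and 559 of the 9633. From the weakest to the strongest quintile, the share of the 919 among distal peaks was 6.29%, 6.83%, 7.06%, 8.13% and 6.40%. The rule takes peaks with MEF2 or AP-1 out of the 919 but not out of the distal peaks they are divided by. For all 1032 distal NF-kB peaks the shares were 6.62%, 7.41%, 7.62%, 9.48% and 7.71%. The share of peaks with a MEF2 consensus was 4.65%, 5.52%, 7.10%, 8.32% and 14.0%, a rise in every step.

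**Figure D2:**
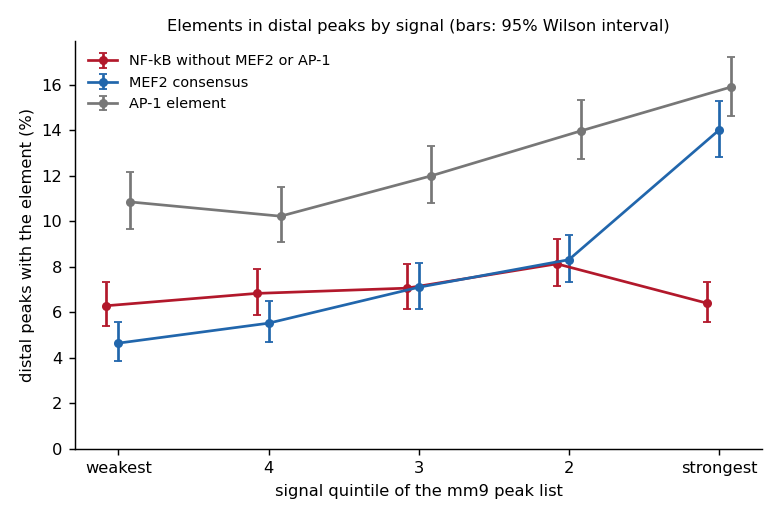
Share of distal peaks (y axis, %) in each signal quintile of the mm9 list (x axis, weakest to strongest) that hold an NF-kB element without MEF2 or AP-1 (red), the MEF2 consensus (blue) or an AP-1 element (grey); bars are 95% Wilson intervals. The red points lie between 6.29% and 8.13% in all 5 quintiles, while the blue ones reach 14.0% in the strongest. Peaks with MEF2 or AP-1 are left out of the red set but not out of the distal peaks it is divided by.

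Some peaks without a full MEF2 consensus nonetheless had a stretch 1 base short of it, and these had the higher MEF2A signal. A stretch matching 9 of the 10 positions stood in 160 of the 919 peaks (17.4%, 15.1 to 19.996), against 21.7% (20.9 to 22.6) of the 9633 with none of the 3 elements. In the 919, 20.5% of the start positions for an element of 10 bases overlap the NF-kB element. The shares with such a stretch in this paragraph are not scaled for that. The median percentile was 68.8 (62.2 to 75.8) in those 160 and 55.0 (49.7 to 58.0) in the 759 others, intervals that do not overlap; in the 9633 it was 64.4 (62.1 to 66.1) with and 47.2 (46.1 to 48.4) without such a stretch. By quintile, 30.6% (24.6 to 37.4) of the strongest of the 919 had one, against 15.6%, 13.4%, 14.4% and 11.1% of the following 4 quintiles; in the strongest quintile of the 9633 it was 34.3% (32.2 to 36.4). Of the 57 peaks ranked 1000 or better, 20 had one (35.1%, 24.0 to 48.1), against 250 of the 559 such peaks with none of the 3 elements (44.7%, 40.7 to 48.9), with overlapping intervals. The unmatched base, with each stretch turned so that it falls in the second part, was the eighth position in 43.0% and the ninth in 24.0%; TTATTTTTGG (7 times), CTATAAATAC, CTATTTTCAG and CTATTTTTGG (5 times each) were the commonest stretches. The nearest such stretch lay within 10 bp of the summit in 39 of the 160 peaks and at 10 to 20 bp in 46. No such difference was seen for AP-1, where peaks matching 6 of 7 positions had a median of 56.0 and those matching 5 had 57.7. This split was chosen after values were seen.

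Base composition moved with it. The median GC content of the window was 45.5% with and 51.5% without the stretch. The 10552 distal peaks without MEF2 consensus or AP-1 element were split into 3 groups by GC content, of roughly but not exactly equal size. In the GC-lowest group the median percentile was 60.9 (49.0 to 65.9) in 75 of the 919 peaks with the stretch and 60.6 (52.8 to 67.2) in 126 without. In the middle group it was 76.1 (58.6 to 87.3) in 58 with and 55.8 (47.8 to 61.0) in 277 without, intervals that overlap slightly. In the GC-highest group it was 79.3 (66.9 to 89.9) in 27 with and 50.2 (45.7 to 56.2) in 356 without, intervals that do not overlap. In the GC-lowest group of the 9633 peaks it was 63.8 (60.8 to 66.1) with and 55.5 (53.0 to 57.8) without. Whether the stretch was bound was not tested.

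**Figure D3:**
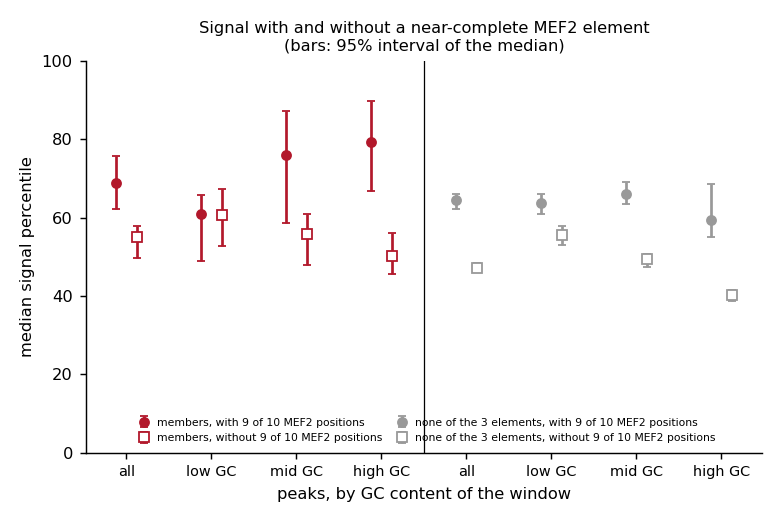
Median signal percentile (y axis, 100 = strongest) of peaks with (filled circles) and without (open squares) a stretch matching 9 of 10 MEF2 positions, for NF-kB peaks without MEF2 or AP-1 (red, left) and peaks with none of the 3 elements (grey, right), over all peaks and in 3 groups by GC content (x axis); bars are 95% intervals of the median. At the left, the filled circle is at 68.8 and the open square at 55.0; in the low-GC group they are at 60.9 and 60.6.

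Elements of some other B cell factors, foremost the ETS-IRF composite, IRF and octamer elements, were rarer in these peaks than in distal peaks with none of the 3 elements, while others were about as frequent. Counting only matches that did not overlap the NF-kB element, an ETS, IRF, PU.1, RUNX, octamer, EBF1, STAT or NFAT element was found in 152 of 919 peaks (16.5%, 14.3 to 19.1), against 2714 of 9633 (28.2%, 27.3 to 29.1). With E-box and Ikaros elements also counted, these were 35.5% (32.4 to 38.6) and 48.4% (47.4 to 49.4); neither pair is scaled for overlap. In the strongest quintile the shares were 19.4% (14.5 to 25.5) and 34.5% (32.4 to 36.6). The NF-kB element takes up letters where another could lie, between 16.0% and 20.5% of the start positions for the elements of 6 to 10 bases, and the shares of the 9633 for several elements are therefore also given scaled down by it.

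The ETS-IRF composite element, to which PU.1 or SpiB binds with IRF4 or IRF8, was in 18 peaks (1.959%, 1.24 to 3.07), against 6.01% (5.55 to 6.50; scaled 4.78%) of peaks with none of the 3 elements and 5.04% of all distal peaks. The octamer ATGCAAAT, the site of Oct1 and Oct2 in immunoglobulin genes, was in 13 (1.41%, 0.829 to 2.41), against 4.18% (3.80 to 4.602; scaled 3.42%). The IRF element, a repeat of GAAA with 2 bases between, was in 17 (1.85%, 1.16 to 2.94), against 4.62% (4.22 to 5.06; scaled 3.67%). For these 3 elements the interval of the NF-kB peaks lay below even the scaled share. For PU.1 and SpiB (GAGGAAGT; 2.39% against 3.96%, scaled 3.23%), RUNX (TGTGGTT with A or T; 3.81% against 5.33%, scaled 4.36%) and the E-box (CACCTG or CAGCTG; 17.4% against 20.7%, scaled 17.4%) the interval included the scaled share.

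The NFAT element TGGAAAA, which can share bases with an NF-kB element, was in 46 peaks (5.01%) when overlaps counted and in 22 (2.39%, 1.59 to 3.598) when they did not, against 4.58%, scaled 3.80%. The Ikaros element TGGGAA was likewise in 210 peaks (22.9%) with overlaps and in 68 (7.40%, 5.88 to 9.27) without, against 8.33%, scaled 6.997%, so that the direction turns with the scaling. EBF1 (1.52% against 1.46%), STAT (2.18% against 2.19%), SRF (1.09% against 1.06%) and GATA (10.4% against 10.7%) had about the same unscaled share in both sets. A CTCF element, the mark of insulator sites, was in 2 peaks, in 1 of them clear of the NF-kB element (0.109%, 0.0192 to 0.614), against 170 of the 9633 (1.76%, 1.52 to 2.05; scaled 1.36%). All matches were sought on both strands, and a match does not show that the factor was bound.

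**Figure D4:**
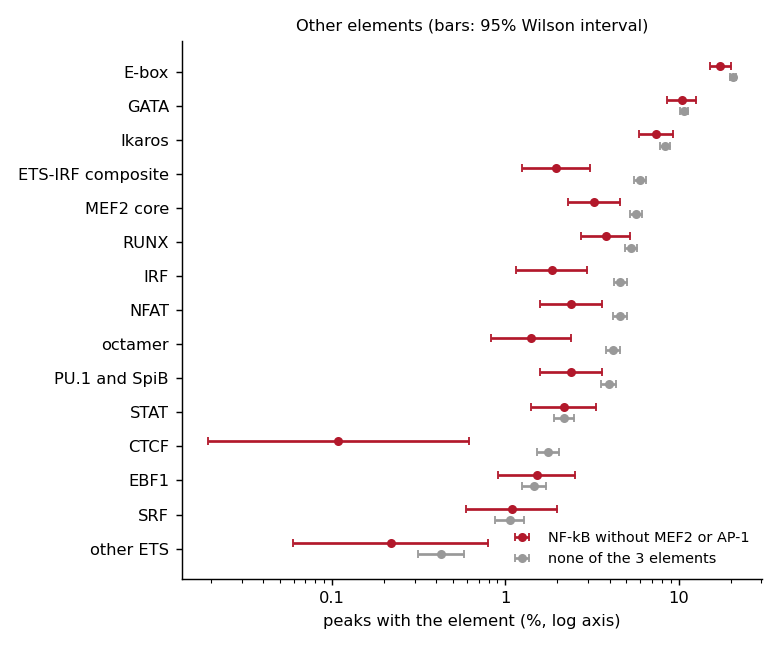
Share of peaks (x axis, %, log scale) with each element clear of the NF-kB element in NF-kB peaks without MEF2 or AP-1 (red, upper point of each pair), and with that element anywhere in the window of distal peaks with none of the 3 elements (grey, lower point); bars are 95% Wilson intervals, and no scaling for overlap is applied. CTCF is at 0.109% against 1.76% and the ETS-IRF composite at 1.959% against 6.01%, while EBF1, STAT, SRF and GATA nearly coincide.

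Their place in the genome was that of distal peaks in general. Introns held 443 (48.2%, 45.0 to 51.4), against 48.0% of all distal peaks, intergenic sequence held 456 (49.6% against 49.5%), and 11 lay in untranslated and 9 in coding parts of exons. The median distance to the nearest TSS was 22801 bp, against 22619 bp. Another peak lay within 10 kb of 511 (55.6%, 52.4 to 58.8), against 52.8%. The windows had a median GC content of 50.5%, or 48.4% outside the element, against 47.5% in distal peaks with none of the 3 elements. Chromosome 16 had the lowest share, 30 of 753 distal peaks (3.98%, 2.80 to 5.63), and chromosome 11 the most peaks, 97 of 1481 (6.55%).

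Genes of the NF-kB pathway itself were among those nearby. A peak of the 919 lay within 50 kb of a TSS of 5 of 11 genes for NF-kB subunits and IkB proteins, against 5.73% of all 22232 protein-coding genes. These genes also had many MEF2A peaks of any kind: 10 of the 11 had a distal peak within 50 kb, against 39.1% of all genes. Of the 40 distal peaks near them, 6 were among the 919 (15.0%, 7.06 to 29.1), against 7.01% of the 9505 distal peaks within 50 kb of any gene, which lies just under that interval. The gene lists were drawn up from general knowledge of the pathway, and no test of a list was made.

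Among the subunits and inhibitors, Nfkbia, which encodes the inhibitor IkB-alpha, had 2 of these peaks, the stronger 8047 bp from the TSS with a signal of 83.4 (rank 5252). Its counterpart ranked 5647 in replicate 1 and 3464 in replicate 2, of the 300000 intervals that each replicate list holds. The intronic peak of Nfkb1 (p105 and p50 subunit) had a signal of 58.7 at 27447 bp from the TSS, and ranked 9198 and 8211 in replicates 1 and 2. Near Nfkb2 (p100 and p52), a peak 10404 bp away had a signal of 56.1 and ranked 10093 and 10296. Near Bcl3, an atypical IkB protein, the signal was 62.2 at 18080 bp, and the ranks were 14330 and 11328. An intronic peak of Nfkbie (IkB-epsilon) had a signal of 49.99 at 2422 bp and differed most, with rank 4243 in replicate 1 and 13954 in replicate 2. All 5 were thus found in both replicates, and the best mm9 rank among them was 5252.

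The genes for NF-kB feedback and ubiquitin regulators had 5 of 16 with a peak nearby, Birc2 and Birc3 sharing 1. Tnip3, a partner of the A20 protein, had the strongest, with a signal of 185 at 26235 bp (rank 1446), which ranked 2205 in replicate 1 and 1048 in replicate 2. In an intron of Tnfaip3, which encodes A20 itself, the peak had a signal of 97.0 at 2524 bp, and ranked 12738 and 4397. The shared peak was 3029 bp from Birc2 and 34699 bp from Birc3 with a signal of 91.6, and Traf2, an adaptor of TNF receptors, had a peak with a signal of 67.2 in an intron. Upstream of NF-kB, 2 of 17 genes had a peak. The stronger was at Malt1, the protease of the complex that links antigen receptors to NF-kB, with a signal of 316 at 16044 bp (rank 541; ranks 621 and 461 in replicates 1 and 2). Of 16 receptors, 1 had a peak, Tlr9, the sensor of unmethylated CpG DNA, with a signal of 66.6 at 7889 bp. Peaks of the 919 made up 9.76% of the 41 distal peaks near the feedback and ubiquitin regulator genes (3.86 to 22.5), 6.67% of 30 near the upstream genes and 3.33% of 30 near the receptor genes, intervals that all include 7.01%.

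Known NF-kB targets of lymphocytes had such a peak at 12 of 35 genes, and 32 of the 35 had some distal peak. Near them, 15 of 144 distal peaks were among the 919 (10.4%, 6.41 to 16.5), which includes the share near all genes. Bcl2l1, the gene of the survival protein Bcl-xL, had the strongest, an intronic peak with a signal of 201 at 4482 bp, and it ranked 1023 in replicate 1 and 1717 in replicate 2. Irf1, an interferon regulatory factor gene, had 2 within 50 kb, the stronger with a signal of 139 at 48612 bp in an intron of another gene. Junb, which encodes an AP-1 subunit, also had 2, the stronger with a signal of 133 at 2148 bp and ranks of 1457 and 2127. A peak with a signal of 85.1 lay within 50 kb of Tnf, Lta and Ltb, neighbouring genes of TNF-family cytokines, so that these 3 genes count 1 region. Ccl22, a chemokine gene beside Cx3cl1, had 4 peaks within 50 kb, the strongest with a signal of 68.6, and its ranks of 4357 and 15455 differed between replicates 1 and 2.

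B cell identity genes had 4 of 24 (Ebf1, Blk, Tcf3 and Ikzf1), and 4 of the 91 distal peaks near them were among the 919 (4.396%, 1.72 to 10.8), although 21 of these genes had a distal peak. B cell receptor signalling genes had 5 of 20, led by Rasgrp3, an exchange factor for Ras, with a signal of 587 in its intron, and Pik3ap1, an adaptor for phosphoinositide 3-kinase, with a signal of 168. Of these 20 genes 18 had a distal peak, and 7 of the 90 distal peaks near them were among the 919 (7.78%, 3.82 to 15.2), close to the 7.01% near all genes. Germinal centre and plasma cell genes had 2 of 16 (Rgs13 and Prdm1) and apoptosis genes 3 of 15 (Mcl1, Bid and Bcl2), where Mcl1 had a signal of 145 at 5950 bp and Bid had 3 peaks within 50 kb. Of the distal peaks near these lists, 6.38% of 47 (2.19 to 17.2) and 12.5% of 48 (5.86 to 24.7) were among the 919, intervals that include 7.01%. In the lists of other lineages, T cell genes had 3 of 16 (Lck, Ctla4 and Cd5), myeloid genes 2 of 14 (Mpo and Csf1r), striated muscle genes 3 of 19 (Ttn, and Tnnt3 and Tnni2 with a shared peak) and hepatocyte genes 0 of 14. Their shares of nearby distal peaks rest on few peaks: 11.4% of 44 for the T cell list (4.95 to 24.0), 21.4% of 14 for the myeloid list (7.57 to 47.6) and 10.5% of 19 for the muscle list (2.94 to 31.4). The interval of the myeloid list lies above 7.01%, as does that of the NF-kB subunits and IkB proteins. No peak of the 919 lay within 50 kb of the immunoglobulin constant genes Igkc, Ighm, Ighg or Ighg1, near which the whole list held 1 peak at Ighg (rank 5176) and 1 at Igkc (rank 9009).

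The single strongest peak, of signal 1435 and rank 4 in the whole list, lay 9488 bp upstream of 1100001G20Rik (Wfdc21 in RefSeq). Its counterpart ranked 5 in replicate 1 and 7 in replicate 2. Snx11, a sorting nexin gene, had an intronic peak of signal 634 that ranked 93 and 144 in replicates 1 and 2. The peak 39577 bp upstream of Cpne2, a copine gene, had a signal of 592 and ranked 134 and 101, and the Rasgrp3 peak ranked 212 and 222. In Pla1a, a phospholipase gene, the intronic peak had a signal of 527 and ranked 187 and 172. The peak upstream of Hmgb1, a chromatin protein gene, had a signal of 495 and differed more, with ranks of 177 and 366, and that in an intron of Fam53b had a signal of 488 with ranks of 256 and 247. The strongest peaks that could be placed were thus strong in both replicates. They were picked by the signal of a list pooled over both, so these ranks are no independent check. The other peaks among the 20 strongest were nearest to Nek6, Lmo4, Fam174a, Larp1, Vrk2, Fbxl17, Pdcd4, D16Ertd472e, Ksr2, Parp1, Zp3r, Gnao1 and Myc, with signals between 382 and 654, and could not be placed in the replicate lists. Some of these genes are far away: Myc is 496327 bp, Fam174a 485792 bp and Lmo4 569073 bp from its peak.

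The 919 peaks were nearest to 811 different genes, and 10 genes were nearest to 3 or more. Zfp36l1, which encodes an RNA-binding protein of mRNA decay, had 5, between 41966 and 152697 bp from the TSS. Bcl2, Ebf1, Hs6st1, Ninj2, Snx11, Tbl1xr1, Vrk2 and Zfp281 were among those with 3 each. Around Zfp281 all 3 lay between 23318 and 24651 bp from the TSS, with ranks of 546, 1994 and 15961.

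The deposited lists of the replicates are on mm10, and no coordinates were converted. A peak was placed in them by its distance from the same gene in each build, which was possible for 471 of the 919 (51.3%), and it was taken as found where a summit lay within 100 bp of that place. Of these 471, 444 had a peak of the authors' optimal IDR set (94.3%, 91.8 to 96.0), against 93.1% of all distal peaks joined in the same way. That set holds 31497 peaks and is larger than the authors' conservative IDR set of 28217. In the conservative set 424 were found (90.0%, 87.0 to 92.4), against 89.8% of all distal peaks. In the list of replicate 1, 433 were found (91.9%, 89.1 to 94.1), and in that of replicate 2, 463 (98.3%, 96.7 to 99.1); for all distal peaks these were 92.4% and 97.7%. The 430 found in both had a median rank of 8935.5 in replicate 1 and 7542.5 in replicate 2, and ranks agreed within a factor of 2 for 276 (64.2%), against 65.2% of 6055 distal peaks. Across these 430 peaks Spearman's rho of the 2 ranks was 0.65, against 0.69 in all distal peaks, given as a description, since both lists share peak width and mappability. Both replicates thus held these peaks about as often as other distal peaks.

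**Figure D5:**
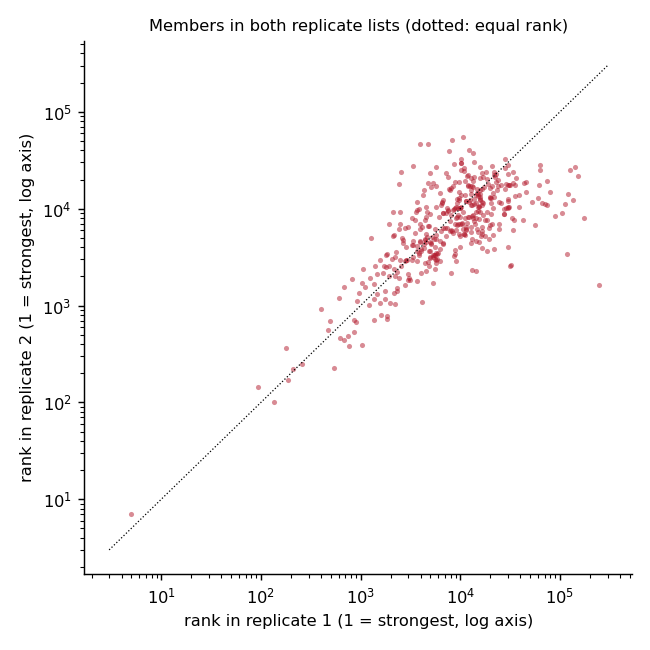
Rank in replicate 1 (x axis) and in replicate 2 (y axis) of the 430 NF-kB peaks without MEF2 or AP-1 placed in both lists, on log axes with 1 as the strongest; each point is a peak and the dotted line marks equal ranks. The strongest peak, ranked 5 and 7, stands alone at the lower left, and 262 of the points lie below the line, with the better rank in replicate 2.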

How the data were processed

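The deposited data used were peak lists in narrowPeak layout, called by the authors per sample and on pooled samples, per the file headers and texts deposited with them. The signal value of a peak is as deposited by the authors, and lists were called separately, so signals were compared as ranks or percentiles within a list. The summit offset, another column of the deposited lists, gave the summit. The aligner and the peak caller: not given in the sources used here. Read depth is unknown, and each replicate list is limited to 300000 intervals. The mm9 list is pooled over both replicates.

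Elements were sought as exact matches on both strands of NCBIM37, whose chromosomes contained every peak, with 50 bp to either side of the summit. Genes and TSSs came from GENCODE vM1. For the mm10 lists, 7089 genes whose span differed by at most 10 bp between GENCODE vM1 and RefSeq GRCm38.p6 served as anchors within 100 kb. Intervals of shares are Wilson intervals at 95% and those of medians come from order statistics; both cover counting error only, while peaks that lie close together may vary together. The 2 samples form a single group, so nothing was tested between groups. Searches and joins were tested on simulated data. All 1000 elements planted in sequence of A and T alone were found, so chance matches were not part of that test. All 400 simulated peaks, some of them made without a counterpart, were joined or left out as planned. Peaks on chromosome 18 and in exons were left out of the printed sequences. Genes named are those nearest to the 20 strongest members, up to 4 per list, those nearest to 3 or more members, and antibody constant genes; Birc3 shares a peak, and others of lists with few genes are named in full. Some genes that these rules select are not reported here. The members and lists were chosen with earlier results of these data known. Alternatives changed the window, the distal distance, the TSSs, the excluded MEF2 form, the signal threshold, the join and the gene distance. Python 3.11.15, numpy 2.4.6, scipy 1.17.1 and matplotlib 3.10.9 were used.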

Additional observations from a re-analysis of the deposited data

How the results depend on the processing

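Windows of 25 bp left 482 peaks, of which 95.9% had the NF-kB element within 20 bp of the summit and 14.5% another lymphoid element (E-box and Ikaros included), against 919 peaks, 47.7% and 35.5% in the windows of 50 bp; with windows of 100 bp these shares were 30.7% and 61.0%, as a wider search holds more letters. A distal distance of 5 kb put the median TSS distance at 29454 bp, and TSSs of every biotype put it at 14414 bp. The stronger 50% of the list left 513 peaks, with a median percentile of 74.5, 38.2% in the strongest quintile and 44.4% in introns; the choice by signal fixes the first 3 of these. Peaks with an mm10 counterpart made up 94.3%, and 89.8% at a summit offset within 50 bp and 90.0% in the conservative IDR set; without 1 replicate, where the relaxed list of the other replicate alone, with 300000 intervals, also took the place of the IDR set, they made up between 91.9% and 98.3%. Listed genes with a peak numbered 47, and 23 within 10 kb. In all, 43 values under alternatives moved by less than their interval or 1.5 times. The difference in median percentile between peaks with and without 9 of 10 MEF2 positions, 13.9, was 12.1 to 15.6 under the alternatives in TSS and MEF2 form that were chosen after seeing the data, and 0.33 in the GC-lowest group of peaks. No paired analysis was possible because the series has 1 group.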
